A study of Mus musculus with 16 samples.

Results

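The proteins of the cytosolic ribosome are described here across 4 groups of mouse spinal cord, as the rows of a gene count table whose names follow the Rps and Rpl pattern, together with Rpsa, Rplp0, Rplp1 and Rplp2. Pseudogene rows with the suffix -ps and the Rps6k kinases were left out. The pattern took 88 of 43346 rows, 37 of the small (40S) subunit and 51 of the large (60S) subunit. Of these, 85 had enough counts to be tested (35 small and 50 large), and Rps12l1, Rps12l2 and Rpl10l did not. The list holds the standard ribosomal proteins, their paralogs such as Rpl22l1 and Rps27l, and 5 rows that the GENCODE M21 annotation calls processed pseudogenes (Rps4l, Rps3a2, Rps3a3, Rps12l1 and Rps12l2).

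Adult female mice aged 12 weeks, wild type (labelled WT, strain spelled C57BL7J in the labels), received a contusion and compression of the lumbar cord at L1/L3 with a Fejota clip of 8 g, and their cords were taken 30 days later. From an injured cord came 3 pieces, each 3 mm long: one with the epicenter, one from the rostral side, called above, and one from the caudal side, called below. Uninjured cord of the same levels, T11 to S1, was taken as 1 piece of 9 mm, so the length and level of the piece differ between uninjured and injured groups, and their part cannot be told apart from that of the injury. Each group holds 4 RNA libraries, and the labels do not say whether they come from separate animals or which pieces belong to 1 cord. The p-values therefore speak only of sample-to-sample spread, part of which may be technical.

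A ribosome is built from a small subunit, which reads the mRNA, and a large subunit, which forms the peptide bond, and each protein is needed in step with the others. Most ribosomal protein mRNAs begin with a terminal oligopyrimidine tract (TOP), through which their translation follows the mTORC1 kinase. Cells that grow, divide or secrete are known for making many ribosomes, and neurons for carrying ribosomes and ribosomal protein mRNAs into their processes.

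Libraries held 65.6 to 90.0 M (mega) counts. Of the rows listed as being of ribosomal RNA type, 3 were found (Lars2, Gm26917 and AY036118), and whether their reads are ribosomal RNA was not tested. They took 3.24 to 3.76% of the counts in uninjured cord, 2.03 to 2.88% above, 3.52 to 6.24% at the epicenter and 1.82 to 2.65% below. The pieces held markers of spinal cord: all 10 neuronal and all 9 oligodendrocyte markers had counts in every group. From uninjured cord to epicenter, 10 of 10 neuronal markers fell (summed level 9396 to 10086 CPM, that is, counts per 1000000 of the scaled library total, in uninjured cord and 3017 to 5429 CPM at the epicenter), and so did 5 of 9 oligodendrocyte markers (19276 to 19934 and 14681 to 18421 CPM). Over the same comparison 10 of 10 markers of phagocytic microglia and macrophages rose (1220 to 1345 and 14481 to 18731 CPM), as did 8 of 8 of fibroblasts (129 to 154 and 3265 to 4527 CPM), 8 of 9 of Schwann cells (625 to 761 and 2344 to 3105 CPM), 7 of 7 of reactive astrocytes (1460 to 1566 and 6179 to 8174 CPM), 5 of 5 of red blood cells (52.5 to 106 and 574 to 841 CPM) and 10 of 10 of dividing cells (35.9 to 38.6 and 84.2 to 104 CPM). Of 13 lymphocyte markers 12 rose, though their summed level overlapped (41.0 to 48.7 and 39.2 to 68.5 CPM). Of 7 dorsal root ganglion markers 3 rose and 1 fell, with 89.8 to 101 CPM in uninjured cord, 107 to 163 CPM in epicenter 1 to 3 and 418 CPM in epicenter 4. Beside these marker counts, 31.9% of all rows tested rose and 29.3% fell from uninjured cord to epicenter. The part of these cells in the ribosomal results below was not tested, and in bulk tissue fewer cells of a type and less RNA per cell cannot be told apart.

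The ribosomal protein rows took about 0.6% of all counts in uninjured cord and about 1.3% at the epicenter. The 4 uninjured libraries gave shares of 0.620, 0.661, 0.661 and 0.643%, and the epicenter libraries 1.26, 1.35, 1.06 and 1.36%. Above the injury the shares were 0.831, 0.747, 0.654 and 0.655%, and below it 0.887, 0.796, 1.08 and 0.915%. All epicenter and below libraries lay over the highest uninjured library, whereas above 3 and above 4 lay within the uninjured range. The means were 0.646 ± 0.0192% (SD, n = 4) for uninjured cord, 1.26 ± 0.140% for the epicenter, 0.919 ± 0.117% for the segment below and 0.721 ± 0.0848% for the segment above. Exact 95% binomial intervals of single libraries were far narrower than this spread (0.619 to 0.622% for uninjured 1) and cover counting error only. With Lars2, Gm26917 and AY036118 taken out of the total, the means were 0.670, 1.32, 0.940 and 0.740% in the same order.

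**Figure D1:**
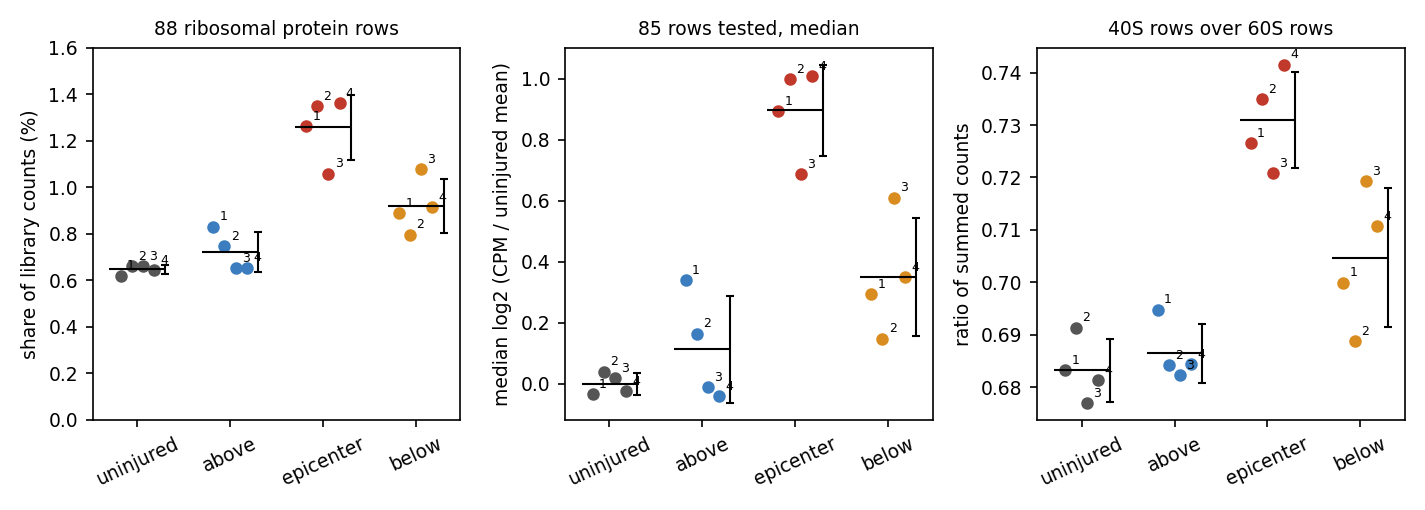
Ribosomal protein rows in each library. Left, share of library counts in the 88 rows (%). Middle, median over the 85 tested rows of the log2 ratio of CPM to the uninjured mean. Right, ratio of summed 40S to summed 60S counts (axis does not start at 0). Points are libraries, numbered by replicate; lines are means and bars SD (n = 4). Epicenter libraries lie between 1.06 and 1.36% and uninjured libraries between 0.620 and 0.661%.

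At the epicenter, 81 of the 85 tested ribosomal protein rows rose against uninjured cord and 0 fell (edgeR quasi-likelihood test, adjusted p under 0.05). Among all 23769 rows tested, 31.9% rose and 29.3% fell. At an unadjusted p under 0.05, 82 rows were higher and 0 lower, and DESeq2 and limma-voom also called 0 lower. The median log2 fold change of the 85 rows was 0.89, a 1.86-fold rise, beside 0.00 for all rows tested, and 84 of the 85 estimates were positive. The quartiles of the 85 rows were 0.72 and 1.10, an interquartile range of 0.38 beside 1.08 for all rows. In 80 of the 85 rows every epicenter library was above every uninjured library, as in 30.5% of all rows. Leaving out any 1 library gave 80 to 82 rows called.

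Small subunit rows rose by a median of 0.97 on the log2 scale (34 of 35 called) and large subunit rows by 0.79 (47 of 50 called). The ratio of summed 40S to summed 60S counts was 0.677 to 0.691 in uninjured cord and 0.721 to 0.742 at the epicenter, with no overlap. Above the injury it was 0.682 to 0.695, and below it 0.689 to 0.719. The heat map of ratios shows the epicenter columns red in nearly every row, and the above columns split, with above 1 and above 2 redder than above 3 and above 4.

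**Figure D2:**
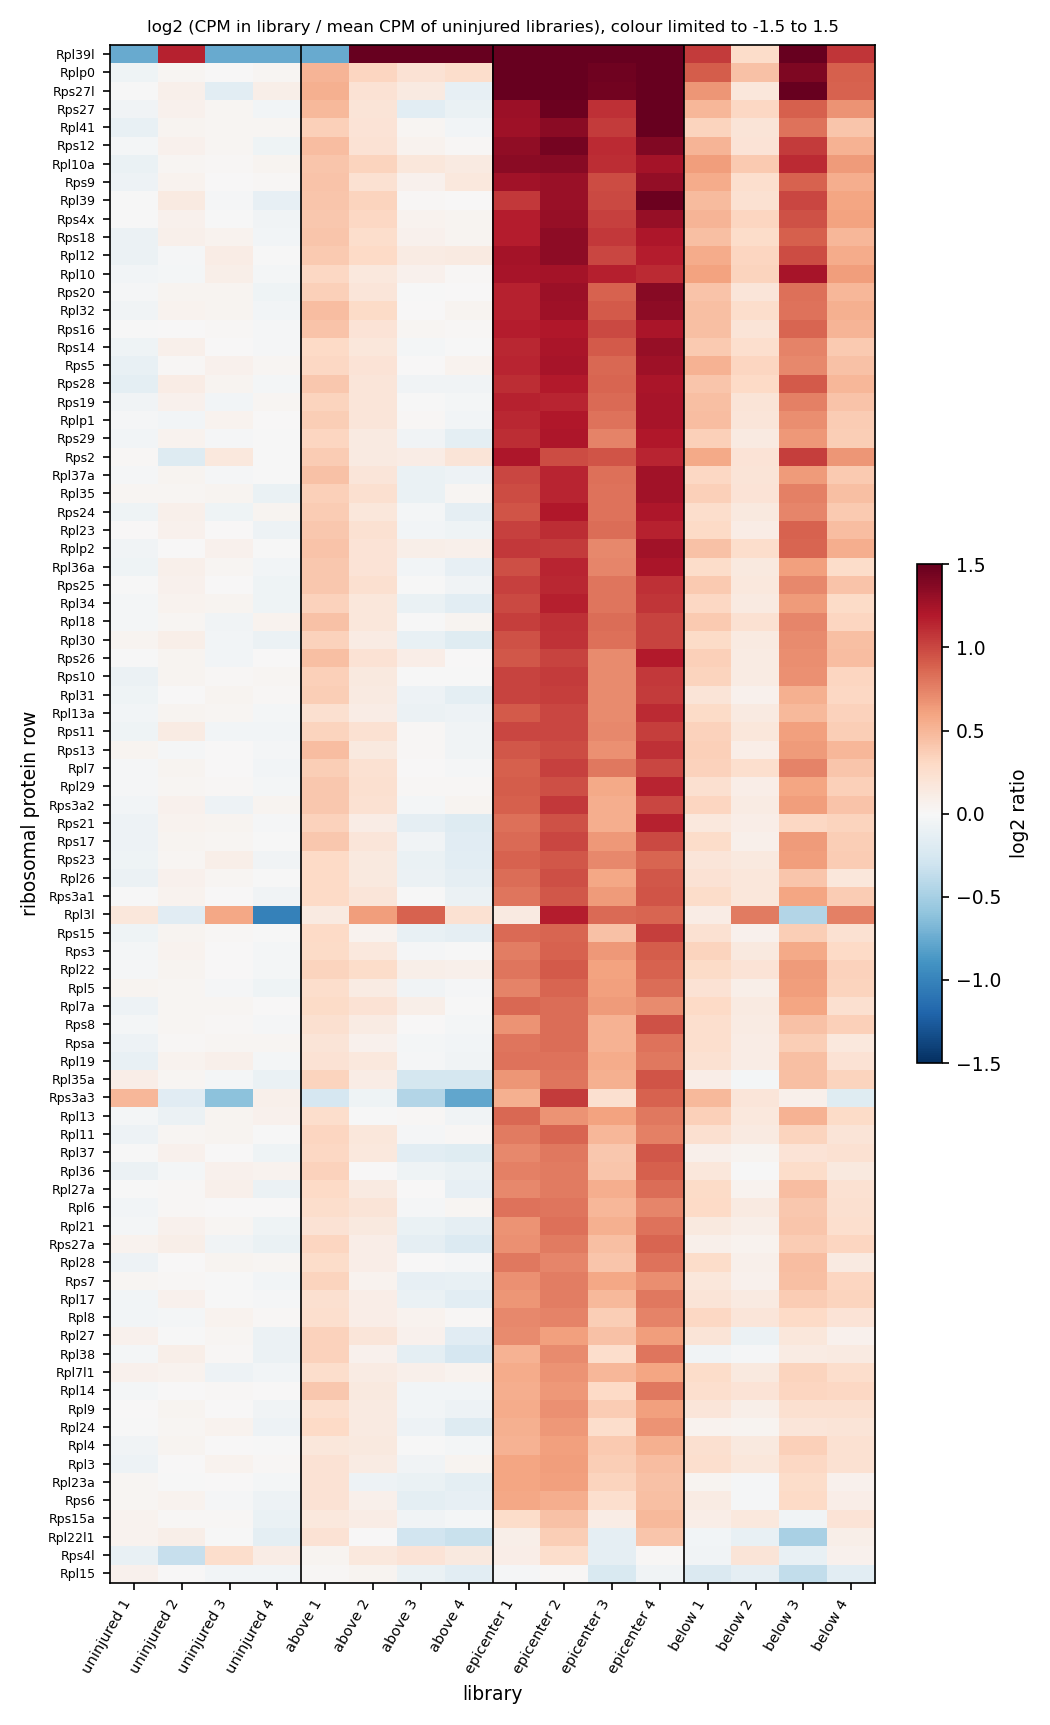
Tested ribosomal protein rows, 84 of the 85 (vertical), in each of the 16 libraries (horizontal), as log2 of CPM over the mean CPM of the uninjured libraries; rows are ordered by the epicenter change and colours stop at -1.5 and 1.5. Epicenter libraries are red in all but the lowest rows, and Rpl15, Rps4l and Rpl22l1 at the bottom stay near white.

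The stalk proteins Rplp0, Rplp1 and Rplp2 form the flexible arm of the large subunit that recruits the translation factors. Rplp0, its base, stood at 112, 119, 118 and 119.5 CPM in uninjured cord, 166, 146, 135 and 141 CPM above, 360.3, 352, 322 and 378 CPM at the epicenter and 219.6, 159, 309 and 217 CPM below. Every library of each injured group was above every uninjured library. The epicenter rise was 3.02-fold (log2 fold change 1.59 ± 0.15, adjusted p = 7.88e-07, edgeR), the largest among the 82 rows that averaged at least 500 counts. Below the injury Rplp0 rose by 0.95 ± 0.14 (edgeR adjusted p = 0.00013), and above it the estimate was 0.33 ± 0.14 (adjusted p = 0.291). Rplp1 and Rplp2, which dimerise on that base, rose at the epicenter by 1.10 ± 0.12 and 1.03 ± 0.13 (edgeR adjusted p = 2.79e-06 and 9.76e-06). Rplp1 had 183, 181, 192 and 186 CPM in uninjured cord and 407, 425, 326 and 436 CPM at the epicenter. Rplp2 had 62.0, 64.6, 67.1 and 64.0 CPM and 134, 133, 107 and 155 CPM in the same groups, again with no overlap.

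Among small subunit proteins, Rps27 and its paralog Rps27l, zinc-finger proteins of which the paralog is a target of p53, had the largest estimates. Rps27 had 26.1, 28.3, 27.8 and 26.4 CPM in uninjured cord and 65.8, 75.0, 58.2 and 82.5 CPM at the epicenter (1.37 ± 0.15, adjusted p = 2.93e-06, edgeR). Rps27l had 8.29, 8.77, 7.44 and 8.83 CPM and 24.4, 25.8, 22.7 and 26.9 CPM (1.58 ± 0.22, adjusted p = 2.28e-05, edgeR). Neither gene overlapped between these groups. Rps12, a protein of the 40S beak, had 69.1, 73.9, 72.4 and 67.6 CPM in uninjured cord and 178, 191, 153 and 186 CPM at the epicenter (1.32 ± 0.15, adjusted p = 3.25e-06, edgeR). Rps4x, the X-linked 40S protein, had 151, 159, 152 and 146 CPM and 343, 376, 311 and 378 CPM (1.21 ± 0.12, adjusted p = 1.61e-06, edgeR).

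Other small subunit proteins had smaller estimates. Rpsa, which lies near the mRNA exit and is also known as a laminin receptor, had 157, 168, 168 and 169 CPM in uninjured cord and 289.5, 297, 237 and 291 CPM at the epicenter (0.75 ± 0.09, adjusted p = 4.7e-06, edgeR). Rps27a, made as a fusion with ubiquitin, rose by 0.70 ± 0.12 (edgeR adjusted p = 0.000159). Rps15, a protein of the 40S head, rose by 0.82 ± 0.12 (edgeR adjusted p = 3.93e-05). Rps6, the substrate of the S6 kinases downstream of mTORC1, had 69.6, 70.7, 67.2 and 64.3 CPM in uninjured cord, 79.3, 71.6, 61.4 and 62.4 CPM above, 101, 99.5, 81.0 and 92.8 CPM at the epicenter and 74.1, 67.3, 83.4 and 72.6 CPM below. Its epicenter libraries all lay above the uninjured ones, and its rise of 0.46 ± 0.10 (edgeR adjusted p = 0.000706) was below the median of the small subunit.

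Among large subunit proteins, Rpl41, the very short basic peptide that bridges the subunits, had 94.3, 105, 104 and 104 CPM in uninjured cord, 131, 118, 104 and 98.8 CPM above, 246, 260.1, 211 and 317 CPM at the epicenter and 129, 116, 179 and 136 CPM below. The epicenter rise was 2.54-fold (log2 fold change 1.35 ± 0.14, adjusted p = 1.92e-06, edgeR), with no overlap. Rpl10a, of the L1 stalk that guides the leaving tRNA, had 34.8, 38.0, 37.6 and 38.2 CPM in uninjured cord and 94.8, 95.6, 80.0 and 88.1 CPM at the epicenter (1.27 ± 0.12, adjusted p = 1.22e-06, edgeR). Rpl10, which joins the large subunit late in its assembly, had 55.1, 55.5, 60.2 and 55.5 CPM and 133, 135, 127 and 123 CPM (1.19 ± 0.14, adjusted p = 5.92e-06, edgeR). Rpl13a, also known for a role outside the ribosome in silencing inflammatory mRNAs, rose from 249 to 263 CPM to 419.5 to 559 CPM (0.95 ± 0.10, adjusted p = 2.79e-06, edgeR), though 35.4% of its exonic bases are shared with other annotated genes. Rpl36a rose by 1.03 ± 0.13 (edgeR adjusted p = 9.98e-06).

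Other large subunit proteins had smaller estimates. Rpl3, next to the peptidyl transferase centre, had 166, 175, 181 and 177 CPM in uninjured cord and 264, 269.6, 226 and 241 CPM at the epicenter (0.52 ± 0.08, adjusted p = 3.97e-05, edgeR). Rpl4, which lines the tunnel, had 323 to 345 CPM and 439 to 514 CPM (0.52 ± 0.08, adjusted p = 3.89e-05, edgeR). Rpl27, Rpl35a and Rpl38, the last known in mouse embryos for its role in translating Hox mRNAs, rose by 0.60 ± 0.10, 0.75 ± 0.14 and 0.59 ± 0.13 (edgeR adjusted p = 0.000115, 0.000294 and 0.000983). Levels were also divided by the gene length deposited with the counts, headed CodingLength, and the order of genes depends on that length. The highest of the 88 rows in uninjured cord were then Rplp1 (374 ± 10.0 CPM per kb, SD, n = 4), Rpl4 (235 ± 6.30 CPM per kb) and Rps15 (221 ± 6.96 CPM per kb). At the epicenter the same 3 genes stood at 805 ± 100.4, 337 ± 21.5 and 389 ± 64.4 CPM per kb. Across the 85 rows, Spearman's rho of the epicenter log2 fold change was -0.12 with that length and -0.07 with uninjured CPM, a description over genes that share libraries.

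Rpl15, a core large subunit protein, was the 1 row with a negative estimate at the epicenter. It had 71.2, 68.8, 66.5 and 66.6 CPM in uninjured cord, 69.1, 70.1, 63.7 and 61.1 CPM above, 67.4, 69.0, 58.2 and 65.9 CPM at the epicenter and 58.7, 62.2, 52.7 and 61.4 CPM below. The epicenter and uninjured libraries overlapped (-0.07 ± 0.07, adjusted p = 0.431, edgeR), while all below libraries lay under the uninjured ones. The fall below the injury was small (-0.22 ± 0.07, adjusted p = 0.0286, edgeR) and did not pass in a fit of these 2 groups alone (edgeR adjusted p = 0.0654) or when uninjured 1, uninjured 2, below 1 or below 3 was left out (edgeR adjusted p = 0.0767, 0.0619, 0.0519 and 0.0635). The other rows not called at the epicenter were the paralogs Rpl22l1, Rps4l and Rpl3l, described next.

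**Figure D3:**
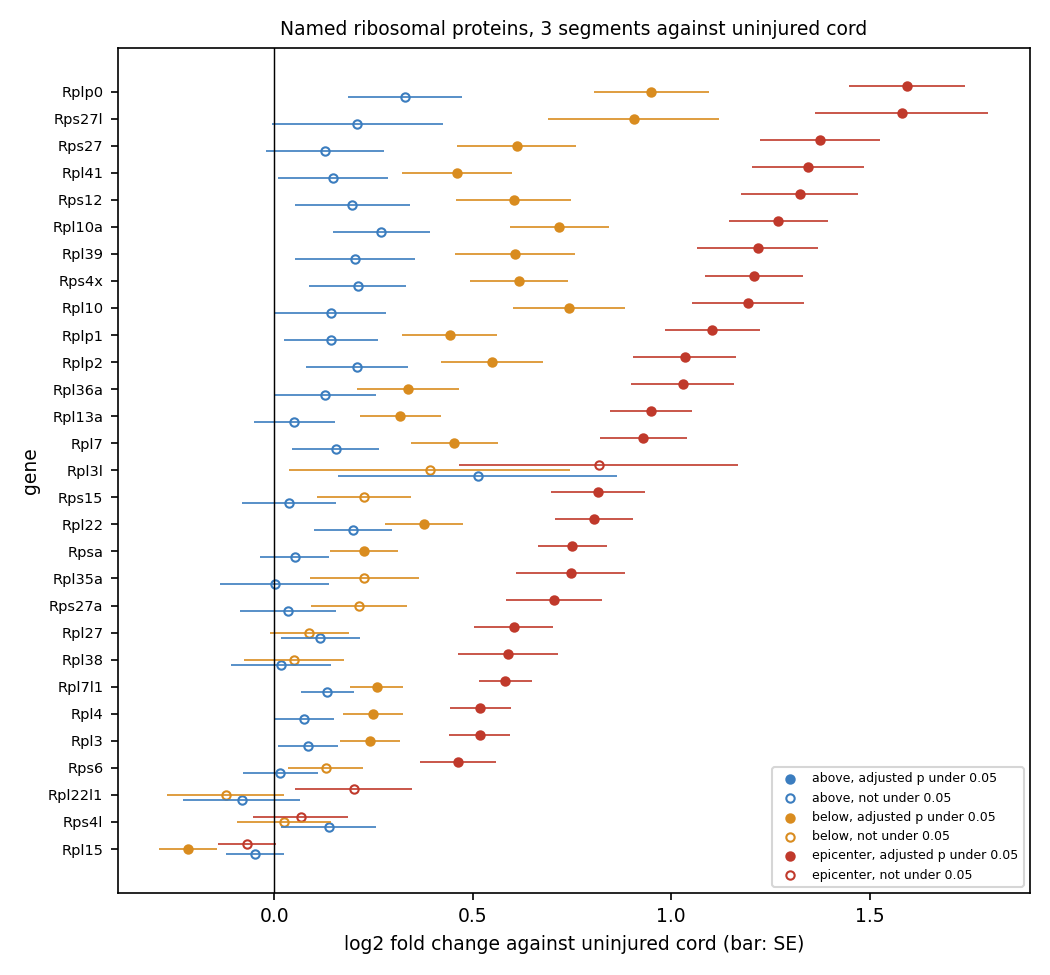
Log2 fold changes against uninjured cord (horizontal, bar SE) of the named ribosomal proteins (vertical, ordered by the epicenter value), for above (blue), below (orange) and epicenter (red); filled points passed an adjusted p under 0.05 in edgeR. Rpl39l is left out for its low counts. Rplp0 leads at the epicenter with 1.59, and the above points all lie between -0.08 and 0.51, none filled.

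Paralogs divided into those that rose with their partner and those that did not. Rpl22l1, whose mRNA is known in mouse to be repressed by its partner Rpl22, had 37.6, 38.7, 36.0 and 32.8 CPM in uninjured cord and 38.6, 46.8, 33.1 and 48.3 CPM at the epicenter (0.20 ± 0.15, adjusted p = 0.249, edgeR), with overlap. Rpl22, an RNA-binding protein of the large subunit, had 82.0, 86.1, 83.3 and 81.9 CPM and 145, 158, 127 and 153 CPM (0.81 ± 0.10, adjusted p = 7.52e-06, edgeR), with none. The share of the pair's counts held by Rpl22l1 was 31.5, 31.0, 30.2 and 28.6% in uninjured cord, 28.5, 26.6, 25.2 and 24.6% above, 21.0, 22.9, 20.7 and 23.9% at the epicenter and 25.8, 26.0, 16.7 and 26.7% below. All 12 injured libraries lay under the lowest uninjured library. The difference was -8.17 percentage points at the epicenter, -4.06 above and -6.53 below, each with an exact two-sided permutation p of 0.0286, the smallest that 4 against 4 libraries allow. Adjusted over the 18 tests of 6 pairs in 3 comparisons this p was 0.0857, so no pair passed after adjustment.

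Rps4l, annotated as a transcribed processed pseudogene, stood at 12.8 to 19.4 CPM in uninjured cord and 14.7 to 19.3 CPM at the epicenter (0.07 ± 0.12, adjusted p = 0.649, edgeR), while Rps4x rose. Its share of the pair was 9.00, 7.42, 11.3 and 10.7% in uninjured cord and 4.80, 4.89, 4.51 and 4.15% at the epicenter (exact permutation p = 0.0286, adjusted 0.0857). Rpl7l1 did rise, from 26.3 to 28.9 to 39.1 to 44.0 CPM (0.58 ± 0.07, adjusted p = 4.3e-06, edgeR), but Rpl7 rose by 0.93 ± 0.11 (edgeR adjusted p = 5.66e-06), and the share of Rpl7l1 was 15.0 to 16.5% in uninjured cord and 12.4 to 13.2% at the epicenter (exact permutation p = 0.0286, adjusted 0.0857). Rps27l held 23.5 ± 1.67% of its pair in uninjured cord and 26.3 ± 1.55% at the epicenter (exact permutation p = 0.0571, adjusted 0.114).

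Tissue-restricted paralogs were scarce. Rpl39l, best known from testis, had 0, 2, 0 and 0 counts in uninjured cord, 0, 6, 4 and 4 above, 36, 13, 24 and 26 at the epicenter and 2, 1, 32 and 2 below. Over the pooled libraries its share of counts was 48.1 times the uninjured share at the epicenter (95% exact counting interval 13.0 to 403), with 2 counts in all of uninjured cord. The epicenter libraries did not overlap the uninjured ones (edgeR adjusted p = 0.00162). Below the injury the call (edgeR adjusted p = 0.0418) rested on below 3, without which the adjusted p was 0.439. Its partner Rpl39, of the exit tunnel, had 34.7 to 41.4 CPM in uninjured cord and 75.2 to 104 CPM at the epicenter, so Rpl39l held no more than 0.544% of the pair in any library. Rpl3l, known from heart and skeletal muscle, had 12 to 42 counts in uninjured cord and 33 to 63 at the epicenter (0.82 ± 0.35, adjusted p = 0.0546, edgeR), and passed with DESeq2 (adjusted p = 0.0356). Skeletal muscle markers, 6 in all, summed to 2.90 to 3.21 CPM in uninjured cord and 3.23 to 7.95 CPM at the epicenter, and their part in Rpl3l was not tested. Rpl10l had 0 counts in uninjured cord, which allows up to 0.0387 to 0.0485 CPM in a library, and 0 to 1 count elsewhere.

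**Figure D4:**
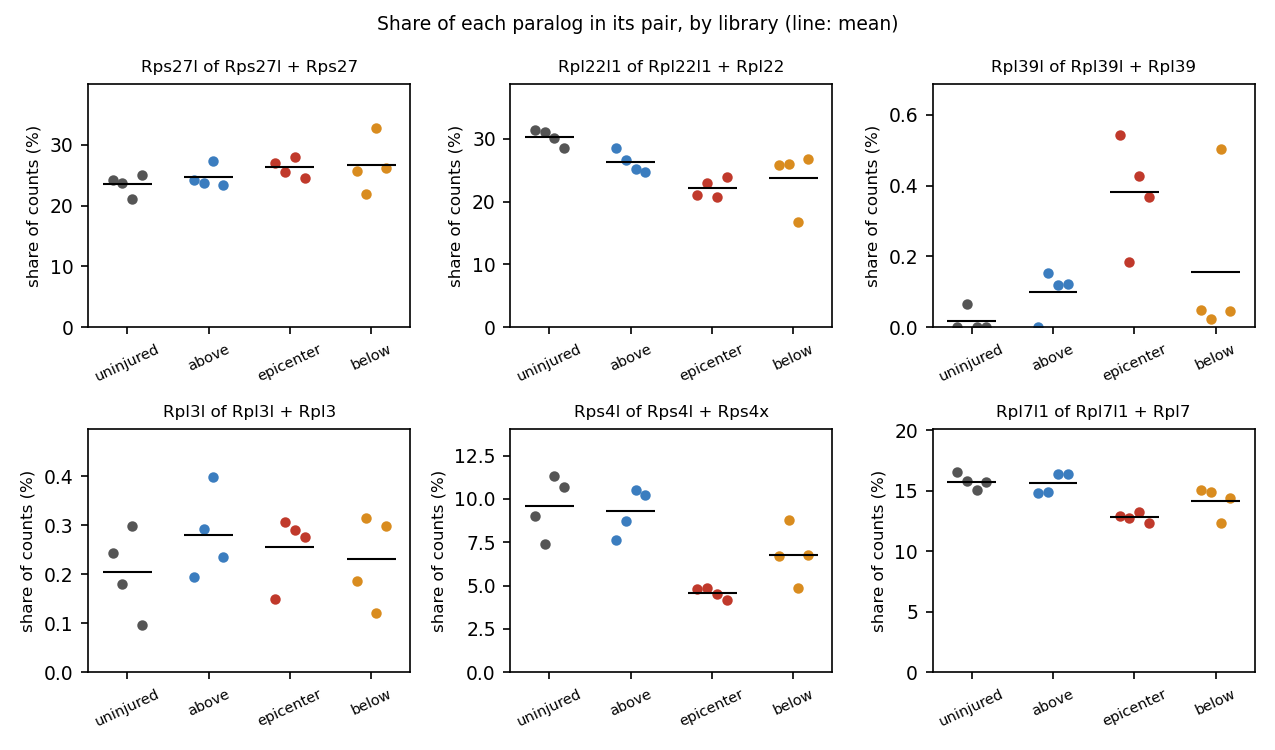
Share of counts (%) that each paralog holds of itself plus its partner, in each library of the 4 groups; lines are means, and each panel has its own axis from 0. Rpl22l1 holds 28.6 to 31.5% in uninjured cord and 20.7 to 23.9% at the epicenter, and Rps4l holds 7.42 to 11.3% and 4.15 to 4.89%. No pair passed after adjustment.

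The comparisons of below and above with uninjured cord share its 4 libraries with that of the epicenter. Below the injury, 60 of the 85 rows rose against uninjured cord and 1, Rpl15, fell (edgeR, adjusted p under 0.05), against 23.6% and 15.7% of all rows. The median log2 fold change was 0.35, a 1.28-fold rise, beside 0.00 for all rows tested. In 68 rows every below library was above every uninjured library (22.9% of all rows). The largest called rises after Rpl39l were those of Rplp0, Rps27l (0.91 ± 0.22), Rpl10 (0.74 ± 0.14) and Rpl10a (0.72 ± 0.12), with edgeR adjusted p-values of 0.00013, 0.00429, 0.000831 and 0.000387. Rpl38, Rpl27, Rps4l and Rpl22l1 did not pass (0.05 ± 0.13, 0.09 ± 0.10, 0.02 ± 0.12 and -0.12 ± 0.15). Without uninjured 1 the count of rises was 38, and without each other library it was 44 to 66.

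The below libraries differed among themselves. The median over the 85 rows of log2 CPM against the uninjured mean was 0.29, 0.15, 0.61 and 0.35 for below 1 to 4. Rpl10 shows this with 86.0, 71.5, 134 and 87.6 CPM in the 4 libraries. Below 3, the highest, had 24745 CPM of summed phagocyte markers and 1569 CPM of summed neuronal markers, while below 2, the lowest, had 3381 and 6849 CPM, and below 1 and below 4 had 8368 and 9443 CPM of the former and 5558 and 4894 CPM of the latter. Fibroblast markers summed to 1525, 627, 2486 and 1617 CPM in below 1 to 4. The part of these markers in the ribosomal rise was not tested. Without above 1 and below 3 together, 82 rows rose at the epicenter and 54 below the injury.

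Above the injury, 0 of the 85 rows rose and 0 fell against uninjured cord (edgeR, adjusted p under 0.05, lowest 0.291 for Rplp0), where 3.09% and 0.446% of all rows did. At an unadjusted p under 0.05, 2 rows were higher and 0 lower, and DESeq2 and limma-voom called 0. The median was 0.13, beside 0.00 for all rows tested, and 81 of the 85 estimates were positive. In 6 rows (7.06%) every above library was above every uninjured library, beside 13.4% of all rows. The libraries split. The median over the 85 rows of log2 CPM against the uninjured mean was 0.34, 0.16, -0.01 and -0.04 for above 1 to 4. The uninjured libraries lay at -0.03 to 0.04. Fitted with the 2 groups alone, 5 of the 85 rows were called higher, where 3684 of 22217 rows passed in either direction. Without below 3 in the fit of all groups 2 were, and the share of all rows in that fit was not computed. Nothing about the members is read from these 2 counts. Fibroblast markers summed to 608 CPM in above 1 and 212 to 229 CPM in the other above libraries, and phagocyte markers to 3687 and 2904 to 3041 CPM, and their part was not tested.

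Against the segment above, 81 of 85 rows were higher at the epicenter and 0 lower (edgeR, adjusted p under 0.05), where 28.3% and 24.4% of all rows were, with a median of 0.78. The unadjusted count was also 81 higher and 0 lower, DESeq2 and limma-voom called 0 lower, and the 4 rows not called were Rps4l, Rpl15, Rpl22l1 and Rpl3l. Rplp0 was higher by 1.26 ± 0.15, Rps27l by 1.37 ± 0.22, Rps27 by 1.25 ± 0.15 and Rpl41 by 1.20 ± 0.14 (edgeR adjusted p = 1.82e-05, 0.000159, 2.53e-05 and 2.12e-05). These pieces have the same length, so the difference in piece length between uninjured and injured cord does not enter here. They come from different levels of the cord, and the part of level cannot be told apart from that of the injury. In 77 rows every epicenter library was above every library of the segment above (26.6% of all rows).

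Against the segment below, 77 of 85 rows were higher at the epicenter and 0 lower (edgeR, adjusted p under 0.05), where 11% and 10.2% of all rows were, with a median of 0.55. At an unadjusted p under 0.05, 80 were higher and 0 lower, and DESeq2 and limma-voom called 0 lower. Rpl41 differed most among the called rows (0.88 ± 0.14, adjusted p = 0.00258, edgeR), followed by Rps27 (0.76 ± 0.15), Rps12 (0.72 ± 0.15) and Rpl36a (0.69 ± 0.13). In 63 rows the libraries did not overlap (8.73% of all rows). Fitted with these 2 groups alone, 0 of the 85 rows passed, the lowest adjusted p being 0.0596, and 31 of 23066 rows passed in all, while 78 rows were higher and 0 lower at an unadjusted p under 0.05.

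Between the flanking segments, 0 of the 85 rows were higher above than below and 17 were lower (edgeR, adjusted p under 0.05), where 9.11% and 15.2% of all rows were, with a median of -0.24. The part called lower was not far from that of all rows, and nothing about the members is read from this count. At an unadjusted p under 0.05, 1 was higher and 44 were lower, and DESeq2 and limma-voom called 0 higher. Of the 17, 11 were small and 6 large subunit rows, led by Rps27l (-0.70 ± 0.21), Rplp0 (-0.62 ± 0.14), Rpl10 (-0.60 ± 0.14), Rps27 (-0.48 ± 0.15) and Rpl10a (-0.45 ± 0.12). In 2 rows every above library was under every below library, against 12.6% of all rows. Fitted with these 2 groups alone, 0 rows passed (lowest adjusted p 0.0777, with 17 lower at an unadjusted p under 0.05). With the replicate number as a block the count was 10, where 6165 of 23769 rows passed in either direction. With library totals in place of the scaled ones it was 50, and the share of all rows was not computed there. The count moved with single libraries too: it was 37 without above 1 and 42 without below 2, but 2 without above 3 or above 4, 5 without above 2 or below 4, 4 without below 3 and 11 without below 1.

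Rows with a larger change at the epicenter against uninjured cord tended to have a larger difference of below against above, a pair of comparisons with no library in common. Spearman's rho over the 85 rows was 0.88, and 0.92 over the 82 rows that averaged at least 500 counts. The rows share libraries, and the injured pieces may come from the same cords, so the values are not independent and this is a description. The 4 X-linked members, Rps4x, Rpl39, Rpl10 and Rpl36a, all had epicenter changes above the median of the 85 rows (1.21, 1.22, 1.19 and 1.03), a feature picked out after the values were seen.

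Start-site sequence was looked at because the TOP motif sits at the first base of the mRNA. RefSeq promoter windows of GRCm38.p6, running from 250 bases before to 50 after the annotated start, were matched for 63 of the 88 members. A C at the annotated start followed by at least 4 pyrimidines was found in 13 of the 63 (20.6%, beside 3.01% of 27025 genes). The median epicenter change was 0.75 for these 13 members and 0.95 for the 49 tested members without it. The letters CTTTC within 20 bases of the start on the gene's strand were found in 19 of the 63 (30.2% beside 6.44%), and CCGGAAG, on either strand of the whole 300-base window, in 26 (41.3% beside 9.93%). A match is a description of letters and no sign of use, and the annotated start can lie some bases from the true one.

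The 3 lowest and the 3 highest epicenter changes among the 13 members with such a start are shown, so that the tract can be compared between members that moved little and members that moved far. Each line gives 15 bases before the annotated start and 15 from it, 5′ to 3′ on the gene's strand, with the start C and the pyrimidines that follow in capitals.
Rpl15: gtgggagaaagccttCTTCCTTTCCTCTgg
Rps15a: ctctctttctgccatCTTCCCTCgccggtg
Rps6: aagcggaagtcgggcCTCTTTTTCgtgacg
Rpl35: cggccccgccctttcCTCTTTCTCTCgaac
Rps18: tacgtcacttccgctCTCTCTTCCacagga
Rps27: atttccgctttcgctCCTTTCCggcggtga
The windows lie at chr14:18270972-18271001 (Rpl15), chr7:118116133-118116162 (Rps15a), chr4:86857353-86857382 (Rps6), chr2:39005117-39005146 (Rpl35), chr17:33955651-33955680 (Rps18) and chr3:90213634-90213663 (Rps27) of GRCm38.p6, all on the minus strand. The capital run is 13 bases long in Rpl15 and 8 in Rps15a, whose epicenter changes were -0.07 and 0.34 (edgeR adjusted p = 0.431 and 0.00427). It is 9 bases in Rps6, 11 in Rpl35, 9 in Rps18 and 7 in Rps27, whose changes were 0.46, 1.06, 1.20 and 1.37. These 6 were picked by their change, and over all 13 the shortest tracts, 5 bases in Rps21 and Rplp2, went with changes of 0.89 and 1.03, so no order by tract length is read from them. Of the exonic bases of Rpl35, 66.2% are shared with genes on the opposite strand, whose reads cannot be told apart from its own in libraries that do not mark the strand.

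The 4 ribosomal protein genes whose names fall outside the pattern all rose at the epicenter, with a median of 0.85, while 0 rose above and 2 below. Of all rows tested, 31.9% rose at the epicenter, 3.09% above and 23.6% below. Gnb2l1, the scaffold protein RACK1 of the small subunit head, stood at 102 to 112 CPM in uninjured cord and 270 to 308 CPM at the epicenter (1.43 ± 0.13, adjusted p = 6.81e-07, edgeR). Fau, a fusion of a ubiquitin-like protein with a small subunit protein, stood at 49.3 to 59.0 CPM and 98.5 to 130 CPM (1.11 ± 0.12, adjusted p = 3.06e-06, edgeR).

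The proteins of the mitochondrial ribosome are encoded by other nuclear genes. Of 77 tested, 11 rose and 13 fell at the epicenter (14.3 and 16.9%, beside 31.9 and 29.3% of all rows) with a median of 0.02, led by Mrpl52 (0.99 ± 0.12, adjusted p = 9.52e-06, edgeR) and Mrpl33 (0.83 ± 0.11, adjusted p = 1.36e-05, edgeR), beside 81 and 0 of the 85 cytosolic rows. Below the injury 2 rose and 23 fell (2.60 and 29.9%, beside 23.6 and 15.7% of all rows, median -0.19). Nuclear-encoded respiratory chain subunits, which assemble with the products of that ribosome, numbered 58, of which 4 rose and 10 fell at the epicenter (6.90 and 17.2%, median -0.10), Ndufs1 by -0.78 ± 0.11 and Sdha by -0.54 ± 0.09 (edgeR adjusted p = 3.22e-05 and 7.37e-05). Below the injury 0 of the 58 rose and 44 fell (median -0.37), while 60 of the 85 ribosomal rows rose there.

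Of 10 elongation factors, 4 were higher and 3 lower at the epicenter (median 0.12), shares near those of all rows (31.9 and 29.3%). Eef1a1, which brings aminoacyl-tRNA to the ribosome, rose from 922 to 1015 CPM in uninjured cord to 2168 to 2331 CPM at the epicenter (1.23 ± 0.15, adjusted p = 6.98e-06, edgeR), and Eef1b2, its exchange factor, rose by 0.67 ± 0.10 (edgeR adjusted p = 5.58e-05). Of 36 initiation factors 14 rose and 10 fell (38.9 and 27.8%, again near the shares of all rows, median 0.02), among them Eif3f, a subunit of the eIF3 complex (0.61 ± 0.09), and Eif1ax, a scanning factor (-0.88 ± 0.13, edgeR adjusted p = 2.62e-05 and 3.64e-05). Of 12 other genes known for TOP mRNAs, 10 rose and 0 fell (median 0.50). These include Pabpc1, the poly(A)-binding protein, at 86.2 to 95.6 CPM in uninjured cord and 226 to 261 CPM at the epicenter (1.42 ± 0.17, adjusted p = 8.13e-06, edgeR), and Vim (4.28 ± 0.37, adjusted p = 5.9e-07, edgeR), which is also in the reactive astrocyte list. Of the 12, Eif3e, Eif3f, Eif3h and Eif4b are initiation factors as well. Above the injury 2 of these 12 rose, and below it 6, beside 3.09% and 23.6% of all rows.

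Genes that build ribosomes or regulate their production were called in both directions, as all rows were (31.9% higher and 29.3% lower), and nothing about these lists is read from their counts. Of 29 ribosome assembly and nucleolar genes, 9 rose and 8 fell at the epicenter (31.0 and 27.6%, median 0.07), with Nhp2, a protein of the pseudouridylation particles, at 0.70 ± 0.10 and Rrp12, a subunit export factor, at -0.92 ± 0.14 (edgeR adjusted p = 3.37e-05 and 7.37e-05). Of 14 genes of RNA polymerase I, which transcribes ribosomal RNA, 6 rose and 5 fell (42.9 and 35.7%, median 0.09). Rrn3, its initiation factor, changed by -0.62 ± 0.10 and the subunit Znrd1 by 0.76 ± 0.14 (edgeR adjusted p = 6.79e-05 and 0.000275). The mTORC1 list of 24 genes holds activators and inhibitors of the pathway, and also Myc and Mycn, so its counts give no direction of the pathway. Of the 24, 8 rose and 8 fell (33.3% each, median 0.10). The list was led by Eif4ebp1, the translation repressor that mTORC1 inactivates (3.32 ± 0.32, adjusted p = 1.06e-06, edgeR), and Myc, a transcription factor that promotes ribosome production (1.37 ± 0.16, adjusted p = 5.14e-06, edgeR). Above the injury 0 genes of the assembly, polymerase and mTORC1 lists passed in edgeR, where 3.09% of all rows rose and 0.446% fell.

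**Figure D5:**
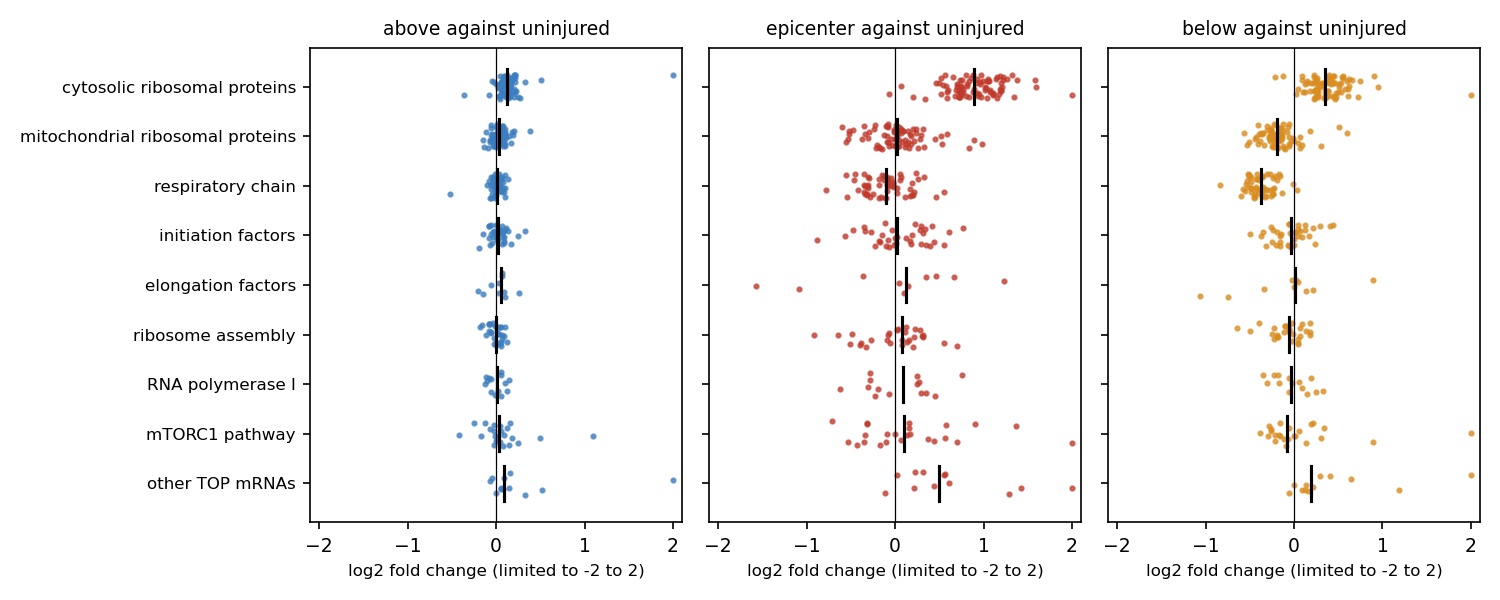
Log2 fold changes (edgeR) against uninjured cord of the tested genes in each list, in the segment above, at the epicenter and below; points are genes, black ticks are medians, and values beyond -2 or 2 are drawn at that limit. At the epicenter the cytosolic ribosomal proteins have a median of 0.89, other TOP mRNAs 0.50 and the remaining lists between -0.10 and 0.12.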

How the data were processed

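RNA of 16 libraries, 4 in each of 4 groups, was sequenced after preparation of 200 ng of total RNA with a kit that does not mark the strand, per the labels' protocols. The authors deposited a table of raw counts per gene, 1 column per library and not normalized, per the file headers. TopHat2 2.0.12, Subread 1.4.4, edgeR and mm10 are listed in the submitters' processing notes without their roles. Which annotation and strand setting were used, and how reads matching several places were handled, is not given in the sources used here, so reads of ribosomal proteins may be split with, or lost to, their many processed pseudogenes. In the table, 252 rows are such pseudogenes with the suffix -ps, and 127 rows whose name repeats were told apart by their identifier. In GENCODE M21, 39 of the 88 members share exonic bases with another gene, 16 over more than 10% of their length and 5 over more than 30%.

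TMM (trimmed mean of M-values) scaling and the quasi-likelihood test of edgeR 4.0.16 (filterByExpr by group, glmQLFit, glmQLFTest, R 4.3.3) were applied to the 16 libraries together, with 1 coefficient for each group. P-values were adjusted by Benjamini-Hochberg over the 23769 rows tested in each of 6 comparisons. A row is called, and said to rise or fall, at an adjusted p under 0.05. A log2 fold change is given ± SE, and CPM use the TMM-scaled totals. DESeq2 1.42.0, limma-voom (limma 3.58.1), other scalings, no filter, fits of 2 groups, the replicate number as a block and leaving out libraries were tried beside it. The fit was checked on simulated counts.

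The members and gene lists were chosen with earlier results of these data known, so no p is given for the set. The genes named are the 7 paralog pairs, the stalk proteins, Rpsa, Rps6, Rps27a, Rpl41 and Rpl13a. Added to them are the 5 largest called rises and falls of each comparison, the 3 members nearest to 0 in each comparison with uninjured cord, the 3 highest per length, and the 2 genes of lowest adjusted p in each pathway list. Rps15a, Rps18, Rps21 and Rpl35 are named for their start-site sequence, and 1 gene that this rule takes is not reported here. No pair of libraries of a group agreed within sampling noise.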

Additional observations from a re-analysis of the deposited data

Results flagged for a closer look

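Within groups of 4 libraries, 1 library stood apart from the others by Dixon's criterion (its gap to the nearest other library against the whole range of the group) in 7 of 132 groups checked, or 5.30%, where chance gives about 1 in 20. In uninjured cord these were Rpl10 in uninjured 3 (60.2 CPM beside 55.1 to 55.5 CPM, gap 0.919 of the range), Rpsa in uninjured 1 (157 beside 168 to 169 CPM, gap 0.913) and Rpl41 in uninjured 1 (94.3 beside 104 to 105 CPM, gap 0.942). Rpl39l had counts in 1 uninjured library, uninjured 2 (0.0276 CPM, gap 1.0), under the limit that a count of 0 allows there. At the epicenter, Rpsa in epicenter 3 was low (237 beside 289.5 to 297 CPM, gap 0.879). Below the injury, Rpl39l in below 3 was high (0.382 beside 0.0105 to 0.0256 CPM, gap 0.960). The ratio of 40S to 60S counts in above 1 was 0.695 beside 0.682 to 0.684 in the other above libraries (gap 0.832).

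The 252 pseudogene rows with the suffix -ps, which enter no comparison, took 0.0388 ± 0.00465% of the counts at the epicenter (SD, n = 4), beside 0.0202 ± 0.000494% in uninjured cord. They held 2.92 to 3.05% of the counts of these rows and the 88 members together at the epicenter and 3.01 to 3.06% in uninjured cord, so their share moved with that of the members. Whether these reads come from the pseudogenes or from the members was not tested.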

How the results depend on the processing

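The rises at the epicenter against uninjured cord and against the segment above kept their counts within 1.5 times under every alternative run. For the named genes, no value called in the main fit or in the alternative changed direction between them. Sign changes between values called in neither were not counted. Leaving out each of the 16 libraries in turn gave 80 to 82 rises at the epicenter against uninjured cord (median 0.85 to 0.98), 80 to 82 against above (median 0.72 to 0.87) and 67 to 81 against below (median 0.48 to 0.62). Below against uninjured cord gave 38 to 66 rises and 0 to 1 falls (median 0.26 to 0.41), above against uninjured cord 0 to 2 rises (median 0.04 to 0.17), and above against below 2 to 42 falls (median -0.33 to -0.15). Fits of the 2 groups compared gave 5 rises above against uninjured cord, 0 falls below against uninjured cord, 0 differences of epicenter against below and 0 falls above against below. For above against uninjured cord, 3684 of 22217 rows passed there in either direction. These fits test fewer libraries with their own spread. The count of 17 falls above against below was 50 with library totals alone and 6 with no filter on low counts. The share of all rows under these settings was not computed, and nothing about the members is read from these counts. The fall of Rpl15 below the injury gave 0 falls with library totals alone and without above 1 and below 3. The mean share of counts in uninjured cord was 0.670% with Lars2, Gm26917 and AY036118 out of the total. It was 0.707% with the row Yam1 also out, a choice made after seeing the data. The epicenter share then was 1.397%. The cause of these shifts was not tested.

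The labels do not say that a replicate number marks a shared cord, and the numbers were not taken to pair the samples. No pair of groups had all 4 correlations of same-numbered libraries over 0.1, a limit that cannot exclude a shared cord. Of 24 correlations 6 exceeded it (lowest -0.09, highest 0.31), all among the 12 between injured segments, and for epicenter and below they were 0.11, 0.19, 0.31 and 0.08. Of 16 libraries, 10 correlated best with a library of their own number. That count includes the uninjured libraries, which share no cord with an injured piece, so it cannot settle whether the numbers mark a cord. With the replicate number as a block, the falls above against below numbered 10 and the rises below against uninjured cord 52, and those at the epicenter, against uninjured cord, above and below, were 81, 81 and 77. Of 23769 rows, 6165, 9669, 14764, 12730 and 4758 passed in these comparisons in the same order, in either direction.

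Depth limits Rpl39l, Rpl3l, Rpl10l, Rps12l1 and Rps12l2, whose counts per library were low. Over 31 named genes, 66 values under other settings lost their call and 30 gained one, and leaving out libraries did so for 107 and 25.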
